A study of Mus musculus with 13 samples.

Results

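The genes of laminins, integrins and their basement membrane partners were examined in the submandibular gland, a major salivary gland, of mice. They were picked by a rule on symbols, which was chosen with earlier results of these data known. The rule took laminin chains (Lama, Lamb or Lamc followed by a digit) and every entry starting with Itga or with Itgb and a digit. It also took the nidogens Nid1 and Nid2, and Hspg2, Agrn and Dag1. The rule found 44 genes among the 17957 entries of the deposited normalised table. They were 11 laminin chains, 2 nidogens, the 2 proteoglycans Hspg2 and Agrn, the dystroglycan gene Dag1, 25 integrin chains and 3 genes of integrin-binding proteins (Itgb1bp1, Itgb1bp2 and Itgb3bp) that the rule caught by the start of their symbols. Bulk RNA was sequenced in 13 libraries of 3 groups. The IR_NTN group (5 libraries, labelled PreIR-NTN) came from irradiated glands injected with Cere-120, an adeno-associated virus vector for neurturin (AAV2-NRTN), 10 days ahead of the irradiation. The IR_GFP group (5 libraries, labelled PreIR-GFP) was irradiated after the same interval from an injection of AAV2-GFP, which carries green fluorescent protein. The NonIR group (3 libraries) was not irradiated, and the sources used here do not say whether it was given a vector, so in comparisons with NonIR the effects of irradiation and of vector cannot be told apart. Mice of all 3 groups were of strain CH3, as the labels spell it, and 1 year old, with glands taken 300 days after treatment. Neurturin, a relative of GDNF, is known to support parasympathetic neurons. The labels do not tie libraries to separate animals, so p-values measure the spread between these libraries, which may be technical.

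Basement membranes are thin sheets of matrix beneath epithelia and around vessels, nerves and muscle fibres. Laminins are built from an alpha, a beta and a gamma chain and form the sheet's first network; nidogens and the proteoglycan perlecan (Hspg2) link it to the collagen IV network. Cells hold on to it through integrins, each a pair of an alpha and a beta chain, and through dystroglycan, and in the embryonic mouse submandibular gland laminins and their integrin receptors are known to take part in branching of the epithelium.

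Libraries held between 9724301 and 16771003 reads on genes, and the 44 genes took between 0.0355% and 0.0673% of them. The 10 most abundant genes took 29.7% of reads in IR_GFP 1 and 55.5% in IR_GFP 3, the extremes. All 6 acinar and all 5 granular tubule markers of the gland were detected and tested. The vector sequences listed in the count table (AAV2 and EGFP) had 0 reads in all 13 libraries, so they could not check the vectors. Several libraries of both irradiated groups stood apart by marker genes. IR_GFP 1 had the lowest summed level of granular tubule markers (12004 CPM, against 16083 to 28237 CPM in the others), a sum made mostly of Crisp3 and Klk1. It had the highest of B and plasma cell markers (1219.6 CPM, against 22.5 to 621 CPM). That sum was nearly all Jchain, which averaged 534 CPM in IR_GFP libraries, where Cd79b, the next highest marker, averaged 2.67 CPM. In IR_GFP 2 the skeletal muscle markers summed to 185 CPM, against 1.63 to 4.52 CPM elsewhere. IR_GFP 5 was highest for macrophage markers. IR_GFP 3 was highest for acinar markers (68012 CPM, against at most 52851 CPM elsewhere). The acinar sum was nearly all Prol1, which averaged 42793 CPM in IR_GFP libraries, where Slc12a2, the next highest marker, averaged 295 CPM. Such sums follow their most abundant gene more than the whole list. For myoepithelial markers IR_NTN 5 was highest (816 CPM) and IR_NTN 3 lowest (497 CPM), as for basal duct markers (92.0 and 50.1 CPM). In bulk RNA, fewer cells of a type and less RNA per cell cannot be told apart.

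Expression is given as CPM, the read count relative to the library's total after scaling by the trimmed mean of M values (TMM), and levels are compared between genes only as CPM per kilobase of exon. On the per-kilobase scale and averaged over all libraries, the most abundant of the 44 was Itgb1, the beta chain shared by most matrix-binding integrins, at 11.9 ± 0.833 in IR_NTN, 11.99 ± 2.18 in IR_GFP and 11.4 ± 0.766 in NonIR libraries (mean ± SD here and below, n = 5, 5 and 3). Itgb4, the hemidesmosome integrin chain, followed at 12.3 ± 5.21 in IR_NTN, 10.5 ± 3.76 in IR_GFP and 7.31 ± 1.58 in NonIR libraries. Dag1, which encodes both dystroglycan subunits, was next at 8.19 ± 0.90 in IR_NTN, 8.06 ± 0.6403 in IR_GFP and 7.71 ± 1.69 in NonIR libraries. Within SDs, Itgb4 overlapped Dag1 in every group and Itgb1 in IR_NTN and IR_GFP but not NonIR libraries, and its mean exceeded that of Itgb1 in IR_NTN libraries, whereas the SDs of Itgb1 and Dag1 did not overlap in any group. Per kilobase, Itgb1 exceeded 83.2%, Itgb4 81.2% and Dag1 76.9% of the 14727 genes tested. At the other end, 4 genes fell below the filter on low counts: Itga7 with 41 reads over all 13 libraries, Itga11 with 52, Itgb3 with 82 and Itgb1bp2 with 20. The other 40 were tested. Lama1 was the lowest of those per kilobase, with 99 reads in all and between 3 and 15 a library.

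**Figure D1:**
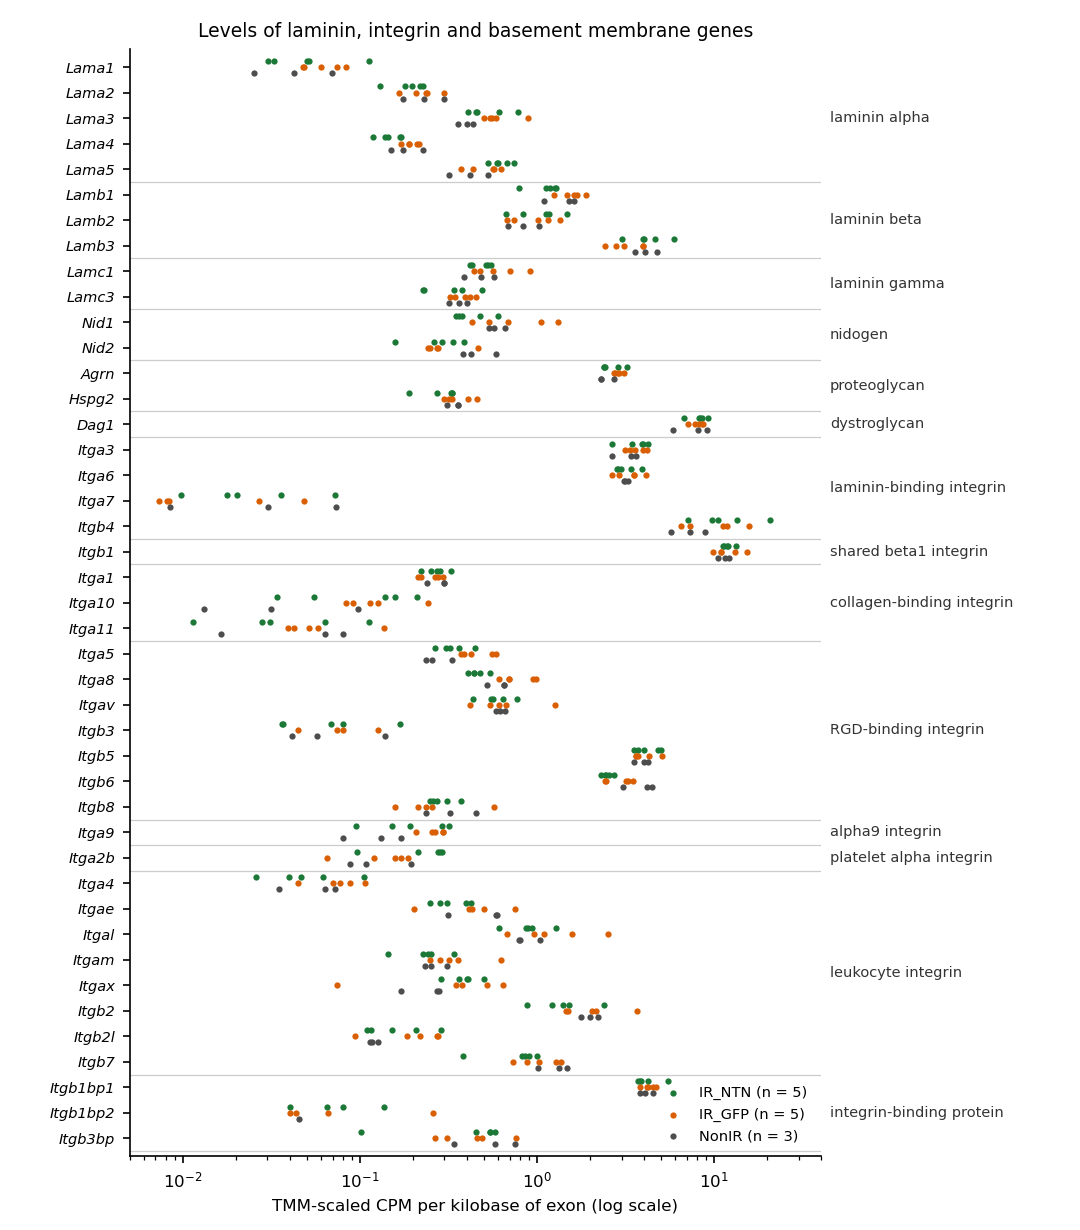
TMM-scaled CPM per kilobase of exon (log axis) of the laminin, integrin and basement membrane genes, 1 point per library, by class, with IR_NTN above IR_GFP above NonIR in each row (n = 5, 5 and 3); values of 0 (Itgb3 in 1 library and Itgb1bp2 in 4 libraries) are not drawn. Itgb1, Itgb4 and Dag1 lie furthest right, and the points of the 3 groups overlap in most rows.

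None of the 40 tested genes passed an adjusted p of 0.05 in any of the 3 comparisons by edgeR's quasi-likelihood test with Benjamini-Hochberg adjustment over the 14727 genes tested, the source of each adjusted p below unless another tool is named. Few genes of any kind did: 0.0204% for IR_NTN against IR_GFP, 0.034% for IR_GFP against NonIR and 0.0204% for IR_NTN against NonIR. DESeq2 and limma-voom also called none of the 40. At an unadjusted p under 0.05 edgeR found 4 of the 40 in each comparison; DESeq2 found 4, 5 and 5 for IR_NTN against IR_GFP, IR_GFP against NonIR and IR_NTN against NonIR, and limma-voom 4, 6 and 4. For IR_NTN against IR_GFP, edgeR's 4 stood beside 6.08% of all genes, with 1 higher (all genes 2.36%) and 3 lower (all genes 3.73%). For IR_GFP against NonIR they stood beside 8.78% of all genes, with 3 higher (all genes 5.35%) and 1 lower (all genes 3.43%). For IR_NTN against NonIR they stood beside 7.97% of all genes, with 1 higher (all genes 4.28%) and 3 lower (all genes 3.69%).

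Directions were uneven in 2 of the comparisons. In IR_NTN against IR_GFP, 29 of the 40 genes had a log2 fold change below 0 (all genes 52.7%) and 11 above (all genes 47.3%), with a median of -0.20 beside -0.01 over all genes. In IR_GFP against NonIR, 31 of the 40 were above 0 (all genes 52.7%) and 9 below (all genes 47.3%), with a median of 0.15 beside 0.02. In IR_NTN against NonIR, 21 were above 0 (all genes 50.5%) and 19 below (all genes 49.5%), with a median of 0.02 beside 0.00. The first 2 comparisons share the IR_GFP libraries and the last 2 the NonIR libraries, so they are not independent of each other. Without IR_GFP 1 and IR_GFP 2 together, the median for IR_NTN against IR_GFP was -0.06, beside 0.02 over all genes. For IR_GFP against NonIR it was then 0.14, beside 0.00 over all genes. As single libraries were left out, the median ran from -0.25 to -0.14 for IR_NTN against IR_GFP. In the same way it ran from 0.11 to 0.21 for IR_GFP against NonIR. The 5 IR_NTN and 5 IR_GFP values did not overlap for 1 of the 40 genes (Itga8), beside 1.11% of all genes. IR_GFP and NonIR values did not overlap for 3 (Itga5, Itga9 and Lama3), beside 5.14%. IR_NTN and NonIR values did not overlap for 3 (Itgb6, Itgb7 and Itgax), beside 6.52%.

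**Figure D2:**
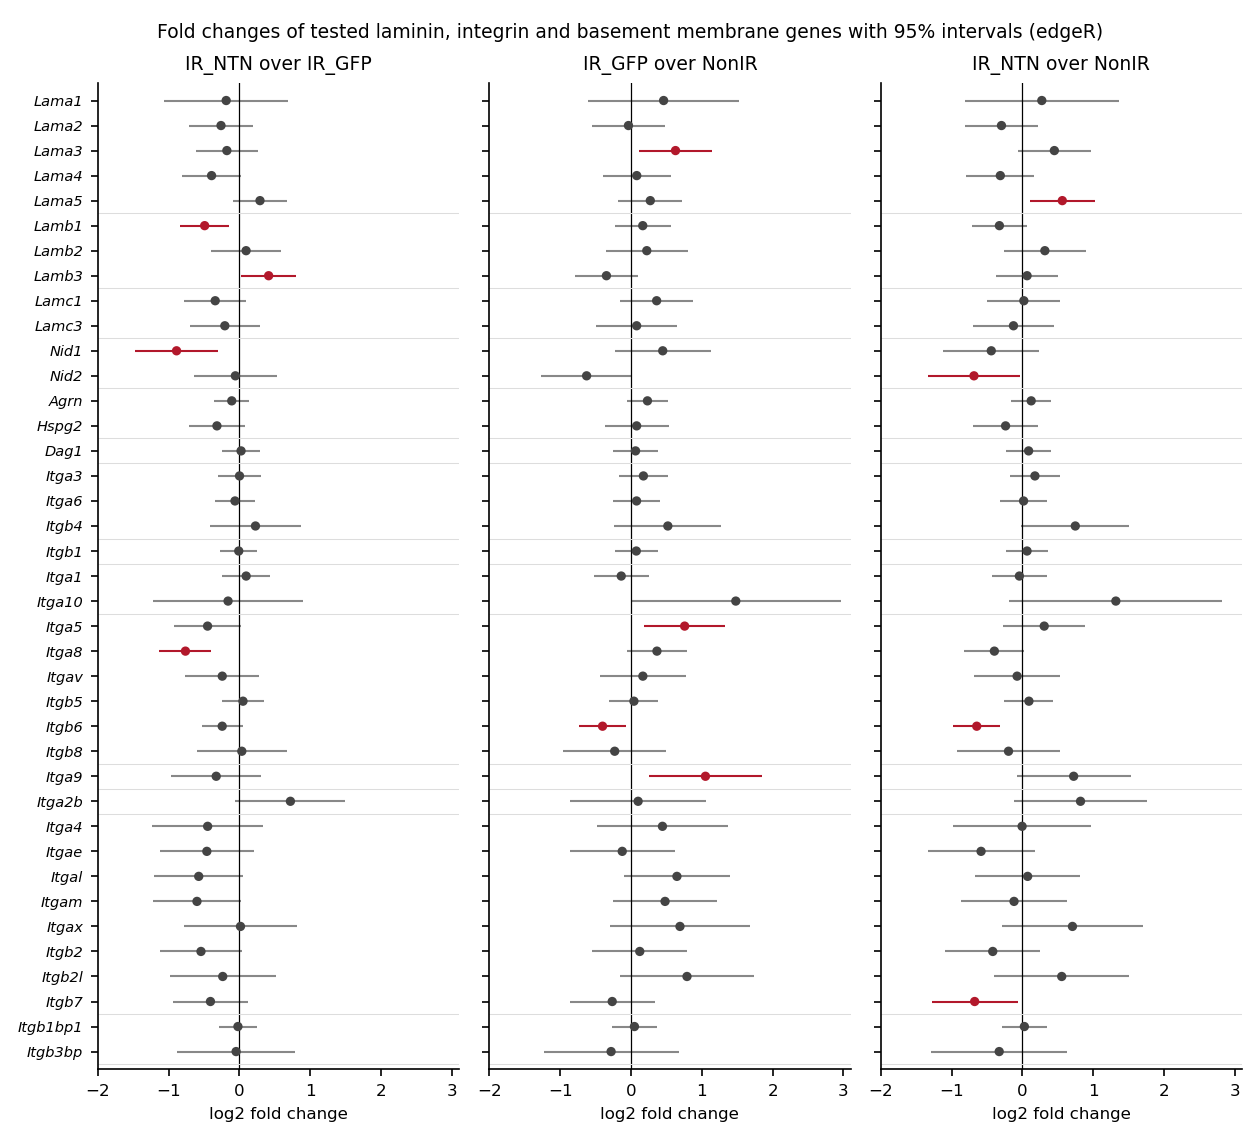
Log2 fold changes (points) with 95% intervals (lines) of the tested genes from edgeR, for IR_NTN over IR_GFP, IR_GFP over NonIR and IR_NTN over NonIR; red marks an unadjusted p under 0.05, and no gene passed the adjusted threshold. Most points lie left of 0 in the first panel and right of 0 in the second.

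Among laminin alpha chains, Lama3, the alpha chain of the laminin that anchors epithelia, and Lama5, an alpha chain of mature epithelial and vascular basement membranes, were the main transcripts. Per kilobase, Lama3 made up 28.5 to 45.2% in IR_NTN, 32.4 to 47.1% in IR_GFP and 27.6 to 33.3% in NonIR libraries of the alpha chains, and Lama5 34.2 to 47.3% in IR_NTN, 22.9 to 39.2% in IR_GFP and 25.2 to 41.1% in NonIR libraries. Lama2, the chain of muscle and peripheral nerve, Lama4, a vessel chain, and Lama1 shared the rest. Lama2 averaged 3.11 ± 0.632 CPM in IR_NTN, 3.74 ± 0.791 CPM in IR_GFP and 3.84 ± 1.01 CPM in NonIR libraries. Lama4 averaged 1.79 ± 0.262 CPM in IR_NTN, 2.35 ± 0.228 CPM in IR_GFP and 2.21 ± 0.479 CPM in NonIR libraries, and neither had an unadjusted p under 0.05. Lama3 had 4.88, 6.57, 4.399, 4.93 and 8.41 CPM in the IR_NTN libraries, 9.57, 6.34, 5.395, 5.799 and 5.94 CPM in the IR_GFP libraries, and 4.65, 4.304 and 3.84 CPM in the NonIR libraries. All 5 IR_GFP libraries lay above all 3 NonIR libraries, and IR_GFP 1 stood far above the other 4. For IR_GFP against NonIR the log2 fold change was 0.63 (SE 0.24, 95% interval 0.11 to 1.15, adjusted p = 0.479), and 0.45 without IR_GFP 1. For IR_NTN against NonIR it was 0.45 (SE 0.24, adjusted p = 0.683), and 0.29 without IR_NTN 5.

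Lama5 had 8.39, 5.98, 7.74, 6.82 and 6.74 CPM in the IR_NTN libraries, 4.93, 7.13, 6.49, 6.41 and 4.22 CPM in the IR_GFP libraries, and 4.79, 3.63 and 6.05 CPM in the NonIR libraries. In IR_NTN libraries 4 of 5 values lay above all NonIR values, and the fifth fell just under the highest. IR_NTN against NonIR gave a log2 fold change of 0.56 (SE 0.22, 95% interval 0.11 to 1.02, adjusted p = 0.5399), and for IR_NTN against IR_GFP 0.29 (SE 0.18, adjusted p = 0.891). The per-kilobase sum of the 5 alpha chains, examined after its values were seen and therefore not tested, was 1.44 to 1.73 in IR_NTN, 1.45 to 1.89 in IR_GFP and 1.26 to 1.299 in NonIR libraries; the NonIR values lay below those of both irradiated groups.

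The beta chains were led by Lamb3, the partner of Lama3 in the anchoring laminin. Lamb1, the beta chain of the widespread laminins, came next per kilobase on average, before Lamb2, known from the nerve-muscle junction and the kidney, which averaged 6.41 ± 1.91 CPM in IR_NTN, 6.005 ± 1.696 CPM in IR_GFP and 5.15 ± 1.02 CPM in NonIR libraries. Lamb3 made up 60.1 to 69.3% in IR_NTN, 50.03 to 60.4% in IR_GFP and 63.3 to 66.7% in NonIR libraries of beta chains per kilobase, so that 1 IR_NTN library (IR_NTN 2) reached into the IR_GFP range. Lamb1 had 12.7, 11.7, 11.1, 7.83 and 12.5 CPM in the IR_NTN libraries, 18.6, 12.4, 14.7, 16.05 and 16.6 CPM in the IR_GFP libraries, and 10.8, 15.02 and 16.1 CPM in the NonIR libraries. Of the 5 IR_NTN libraries 3 lay below all IR_GFP values, and IR_NTN 4 was lowest. Against IR_GFP, IR_NTN libraries had a Lamb1 log2 fold change of -0.49 (SE 0.16, 95% interval -0.83 to -0.15, adjusted p = 0.627).

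Lamb3 had higher IR_NTN values in the same comparison. It had 39.4, 19.9, 26.7, 26.1 and 30.5 CPM in the IR_NTN libraries, 18.6, 26.2, 20.4, 26.1 and 15.99 CPM in the IR_GFP libraries, and 23.5, 26.8 and 31.5 CPM in the NonIR libraries. The groups overlapped, with 3 of 5 IR_NTN libraries above all IR_GFP values and IR_NTN 1 the highest. Its log2 fold change was 0.41 (SE 0.18, 95% interval 0.03 to 0.80, adjusted p = 0.788), and 0.27 without IR_NTN 1. The per-kilobase ratio of Lamb3 to Lamb1 was 4.66, 2.56, 3.62, 5.0 and 3.68 in the IR_NTN libraries, 1.49, 3.17, 2.08, 2.44 and 1.45 in the IR_GFP libraries, and 3.27, 2.67 and 2.94 in the NonIR libraries. It overlapped between IR_NTN and IR_GFP libraries, was chosen after the values were seen, and was not tested.

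Sequences just upstream of 4 genes are shown because they gave the smallest p-values in IR_NTN against IR_GFP, with Lamb3 higher and the other 3 lower. Each runs 5′ to 3′ from 250 to 61 bases before the RefSeq start (GRCm38.p6). Capitals mark matches on either strand to GGGCGG, the GC box, or to CCAAT. The windows are Itga8 at chr2:12302005-12302194 (minus strand), Nid1 at chr13:13437352-13437541 (plus), Lamb1 at chr12:31265043-31265232 (plus) and Lamb3 at chr1:193301744-193301933 (plus).
Itga8: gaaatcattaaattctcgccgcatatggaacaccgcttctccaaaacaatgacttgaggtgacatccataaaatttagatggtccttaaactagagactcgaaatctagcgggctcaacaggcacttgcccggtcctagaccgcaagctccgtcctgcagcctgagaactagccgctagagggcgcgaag
Nid1: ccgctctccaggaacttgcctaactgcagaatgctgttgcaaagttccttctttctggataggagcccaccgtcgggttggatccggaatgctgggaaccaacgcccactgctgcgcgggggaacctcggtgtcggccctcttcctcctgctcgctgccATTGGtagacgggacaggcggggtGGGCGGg
Lamb1: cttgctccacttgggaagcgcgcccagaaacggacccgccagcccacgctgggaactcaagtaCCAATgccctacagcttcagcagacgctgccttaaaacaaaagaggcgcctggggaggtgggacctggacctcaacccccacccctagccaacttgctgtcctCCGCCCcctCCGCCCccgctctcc
Lamb3: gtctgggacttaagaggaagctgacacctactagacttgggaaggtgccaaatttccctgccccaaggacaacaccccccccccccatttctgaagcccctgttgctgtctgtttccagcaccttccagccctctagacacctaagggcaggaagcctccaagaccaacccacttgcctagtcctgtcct
The Nid1 window held 1 GGGCGG and 1 CCAAT, first bases 67 and 91 bases before the start, and the Lamb1 window held 2 GGGCGG and 1 CCAAT, at 84, 75 and 187 bases. Those of Itga8 and Lamb3 held neither, and none of the 4 held TGANTCA, the AP-1 letters, or TATAAA, the TATA box. Of 32851 promoter entries cut to the same 190 bases, 22.8% held GGGCGG, 26.7% CCAAT, 5.22% TGANTCA and 8.73% TATAAA, on either strand. The starts of Itga8, Nid1 and Lamb1 lay within 59 bases of the gene's end in GENCODE, while GENCODE lists Lamb3 from 94295 bases further upstream. RefSeq promoter entries existed for 29 of the 44 genes. A match describes letters in the window only.

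Lamc1, the gamma chain of most laminins, averaged 4.04 ± 0.502 CPM in IR_NTN, 5.13 ± 1.61 CPM in IR_GFP and 3.98 ± 0.758 CPM in NonIR libraries. Lamc3 averaged 2.02 ± 0.664 CPM in IR_NTN, 2.34 ± 0.318 CPM in IR_GFP and 2.204 ± 0.261 CPM in NonIR libraries. Lamc1 was highest in IR_GFP 2 (7.59 CPM), and its log2 fold changes shrank without that library. For IR_NTN against IR_GFP the value was -0.34 (SE 0.21, adjusted p = 0.885) with all libraries and -0.16 without IR_GFP 2. For IR_GFP against NonIR it was 0.36 (SE 0.24, adjusted p = 0.714) with all libraries, 0.18 without IR_GFP 2 and 0.23 without NonIR 2. Neither gene had an unadjusted p under 0.05 in any comparison. Over all 11 laminin chains, the per-kilobase sum was 8.53 to 12.2 in IR_NTN, 8.32 to 10.97 in IR_GFP and 9.297 to 10.8 in NonIR libraries, with wide overlap.

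**Figure D3:**
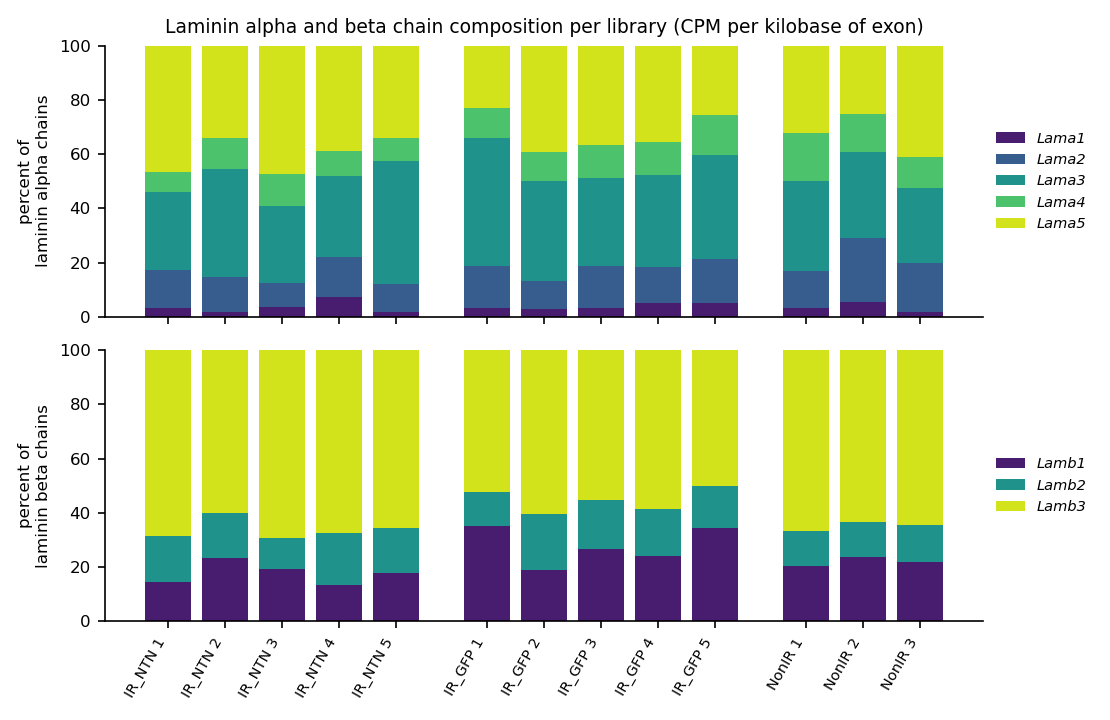
Percent of each laminin chain within its family, from CPM per kilobase of exon, in each of the 13 libraries, for alpha (top) and beta chains (bottom), with IR_NTN, IR_GFP and NonIR libraries from left to right. Lamb3 is the largest part of the beta chains in all 13 libraries, and the Lamb1 part is largest in IR_GFP 1 and IR_GFP 5.

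The nidogens link the laminin and collagen IV networks. Nid1 had 3.298, 2.405, 2.53, 2.61 and 4.203 CPM in the IR_NTN libraries, 9.06, 2.97, 4.77, 3.71 and 7.31 CPM in the IR_GFP libraries, and 3.695, 3.97 and 4.58 CPM in the NonIR libraries. IR_GFP 1 and IR_GFP 5 were high, 3 of 5 IR_NTN libraries lay below all IR_GFP values, and the groups overlapped. IR_NTN against IR_GFP gave a log2 fold change of -0.89 (SE 0.28, 95% interval -1.48 to -0.30, adjusted p = 0.618), and -0.62 without IR_GFP 1.

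Nid2, with 8.45% of its exon bases shared with the antisense gene Rtraf, had 2.01, 1.35, 0.815, 1.74 and 1.51 CPM in the IR_NTN libraries, 2.39, 1.25, 1.41, 1.28 and 1.43 CPM in the IR_GFP libraries, and 1.98, 2.19 and 3.02 CPM in the NonIR libraries. In both irradiated groups 4 of 5 libraries lay below all NonIR values, with IR_GFP 1 the exception in its group. In edgeR the log2 fold change was -0.68 (SE 0.31, 95% interval -1.33 to -0.03, adjusted p = 0.622) for IR_NTN against NonIR and -0.63 (SE 0.30, adjusted p = 0.585) for IR_GFP against NonIR, which share the NonIR libraries. Without IR_GFP 1 the second value was -0.84. The per-kilobase ratio of Nid1 to Nid2 was 1.12 to 2.31 in IR_NTN, 1.76 to 3.82 in IR_GFP and 1.13 to 1.39 in NonIR libraries; all 5 IR_GFP values lay above the NonIR values, a comparison chosen after they were seen and not tested.

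Neither proteoglycan nor dystroglycan had an unadjusted p under 0.05 in any comparison. Agrn, which organises the nerve-muscle synapse and binds dystroglycan, averaged 24.7 ± 3.57 CPM in IR_NTN, 26.6 ± 1.32 CPM in IR_GFP and 22.6 ± 2.39 CPM in NonIR libraries. Hspg2 averaged 4.15 ± 0.892 CPM in IR_NTN, 5.19 ± 0.964 CPM in IR_GFP and 4.91 ± 0.404 CPM in NonIR libraries. Dag1 averaged 52.04 ± 5.72 CPM in IR_NTN, 51.2 ± 4.07 CPM in IR_GFP and 49 ± 10.7 CPM in NonIR libraries. For Dag1, the 95% interval of the log2 fold change was -0.25 to 0.29 for IR_NTN against IR_GFP and -0.25 to 0.38 for IR_GFP against NonIR.

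Of the laminin-binding integrins, Itga3 and Itga6, alpha chains of epithelial laminin receptors, had similar levels: the per-kilobase ratio of Itga6 to Itga3 was 0.675 to 1.09 in IR_NTN, 0.669 to 1.05 in IR_GFP and 0.856 to 1.17 in NonIR libraries. Itga3 averaged 20.8 ± 3.53 CPM in IR_NTN, 20.7 ± 2.41 CPM in IR_GFP and 18.4 ± 2.81 CPM in NonIR libraries. Itga6 averaged 28.8 ± 4.04 CPM in IR_NTN, 30.1 ± 5.23 CPM in IR_GFP and 28.5 ± 0.897 CPM in NonIR libraries. Itga7, the muscle laminin receptor, was below the filter. Itgb4, which pairs with Itga6 in hemidesmosomes, varied widely between libraries. It had 94.4, 49.7, 67.8, 73.4 and 145 CPM in the IR_NTN libraries, 50.98, 78.6, 110.5, 82.5 and 45.3 CPM in the IR_GFP libraries, and 40.2, 51.4 and 62.3 CPM in the NonIR libraries. IR_NTN 5 and IR_GFP 3 were highest, and 4 of 5 IR_NTN libraries lay above all 3 NonIR values. IR_NTN against NonIR gave a log2 fold change of 0.75 (SE 0.35, 95% interval -0.01 to 1.51, adjusted p = 0.637), and 0.48 without IR_NTN 5. For IR_GFP against NonIR it was 0.52 (SE 0.35, adjusted p = 0.717), and 0.33 without IR_GFP 3. In GENCODE 7.66% of Itgb4 exon bases are shared with an antisense gene. Itgb1 averaged 48.6 ± 3.399 CPM in IR_NTN, 48.9 ± 8.901 CPM in IR_GFP and 46.4 ± 3.13 CPM in NonIR libraries, with a log2 fold change of -0.01 (SE 0.12, 95% interval -0.27 to 0.25, adjusted p = 0.998) for IR_NTN against IR_GFP.

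The integrins that bind the RGD sequence held the smallest p-value of the 40 genes in all 3 comparisons (Itga8, Itga5 and Itgb6). Itga8 (ENSMUSG00000026768, chr2:12106632-12301922 on the minus strand), the alpha chain of a receptor for nephronectin and other RGD ligands that is needed for mouse kidney development, had 3.23, 3.99, 3.503, 3.26 and 3.01 CPM in the IR_NTN libraries, 7.25, 4.49, 5.08, 5.12 and 6.95 CPM in the IR_GFP libraries, and 4.79, 4.81 and 3.84 CPM in the NonIR libraries. All 5 IR_NTN libraries lay below all 5 IR_GFP libraries, and 4 of the 5 below all NonIR libraries. For IR_NTN against IR_GFP its log2 fold change was -0.76 (SE 0.17, 95% interval -1.13 to -0.40, adjusted p = 0.207). DESeq2 gave an adjusted p of 0.0612, the lowest over 22 alternatives, and the highest was 0.631. Against NonIR, the value was -0.40 (SE 0.20, adjusted p = 0.657) for IR_NTN and 0.37 for IR_GFP. An antisense gene shares 5.05% of its exon bases.

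Itgb6 (ENSMUSG00000026971, chr2:60598292-60722643 on the minus strand), an epithelial beta chain that pairs with Itgav and activates latent TGF-beta, had 16.4, 17.2, 18.2, 19.4 and 17.4 CPM in the IR_NTN libraries, 24.7, 23.1, 17.3, 17.3 and 22.5 CPM in the IR_GFP libraries, and 31.7, 29.7 and 21.7 CPM in the NonIR libraries. All 5 IR_NTN libraries lay below all 3 NonIR libraries, and 2 IR_GFP libraries, IR_GFP 3 and IR_GFP 4, sat at the IR_NTN level. For IR_NTN against NonIR its log2 fold change was -0.65 (SE 0.16, 95% interval -0.98 to -0.31, adjusted p = 0.309), and its adjusted p over the alternatives ran from 0.0808 in DESeq2 to 0.965. For IR_GFP against NonIR it was -0.40 (SE 0.16, adjusted p = 0.48), and for IR_NTN against IR_GFP -0.24 (SE 0.14, adjusted p = 0.865), or -0.16 without IR_GFP 1. Itgb5, another partner of Itgav, averaged 14.9 ± 2.31 CPM in IR_NTN, 14.4 ± 2.28 CPM in IR_GFP and 14.02 ± 1.29 CPM in NonIR libraries. The per-kilobase ratio of Itgb6 to Itgb5 was 0.481 to 0.729 in IR_NTN, 0.478 to 0.933 in IR_GFP and 0.718 to 1.26 in NonIR libraries, with overlap.

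Itga5, the alpha chain of the main fibronectin receptor, had 1.79, 1.58, 2.2, 1.31 and 1.51 CPM in the IR_NTN libraries, 2.76, 1.91, 2.89, 2.09 and 1.84 CPM in the IR_GFP libraries, and 1.16, 1.27 and 1.63 CPM in the NonIR libraries. Each IR_GFP library lay above all NonIR libraries. This gave a log2 fold change of 0.76 (SE 0.27, 95% interval 0.19 to 1.33, adjusted p = 0.437) for IR_GFP against NonIR and -0.45 (SE 0.22, adjusted p = 0.834) for IR_NTN against IR_GFP. Itga9, whose integrin binds tenascin-C and is needed for mouse lymphatic valves, had 2.44, 1.47, 0.733, 1.16 and 2.22 CPM in the IR_NTN libraries, 2.03, 1.58, 2.27, 1.96 and 2.26 CPM in the IR_GFP libraries, and 0.616, 1.01 and 1.31 CPM in the NonIR libraries. The IR_GFP values lay above the NonIR values without overlap, while the IR_NTN values spread over both. The Itga9 values came from 9 to 38 reads a library, with NonIR 1 at 9, so a few reads bear on the gap. The Itga9 log2 fold change for IR_GFP against NonIR was 1.05 (SE 0.37, 95% interval 0.26 to 1.85, adjusted p = 0.437). Itgav, the alpha chain shared by Itgb3, Itgb5, Itgb6 and Itgb8, was high in 1 library, IR_GFP 1 (13.5 CPM, against 4.52 to 8.25 CPM in the other 12). Itgb8, which like Itgb6 takes part in TGF-beta activation, averaged 3.23 ± 0.549 CPM in IR_NTN, 3.17 ± 1.8 CPM in IR_GFP and 3.72 ± 1.19 CPM in NonIR libraries, with IR_GFP 1 again the highest library.

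The collagen-binding chains were low. Itga1 averaged 5.03 ± 0.716 CPM in IR_NTN, 4.73 ± 0.6601 CPM in IR_GFP and 5.19 ± 0.622 CPM in NonIR libraries. Itga10 had 0.287, 0.176, 0.815, 1.09 and 0.714 CPM in the IR_NTN libraries, 0.435, 0.594, 1.25, 0.472 and 0.654 CPM in the IR_GFP libraries, and 0.0684, 0.506 and 0.163 CPM in the NonIR libraries, which came from 1 to 16 reads a library. Values overlapped between IR_GFP and NonIR, with a log2 fold change of 1.48 (SE 0.70, 95% interval -0.00072 to 2.96, adjusted p = 0.5701) that ran from 1.00 to 2.49 as single libraries were left out, the lowest without NonIR 1 and the highest without NonIR 2. Itga10 shares 33.5% of its exon bases with the gene Gm42957 on the same strand, and how such reads were counted is not stated.

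**Figure D4:**
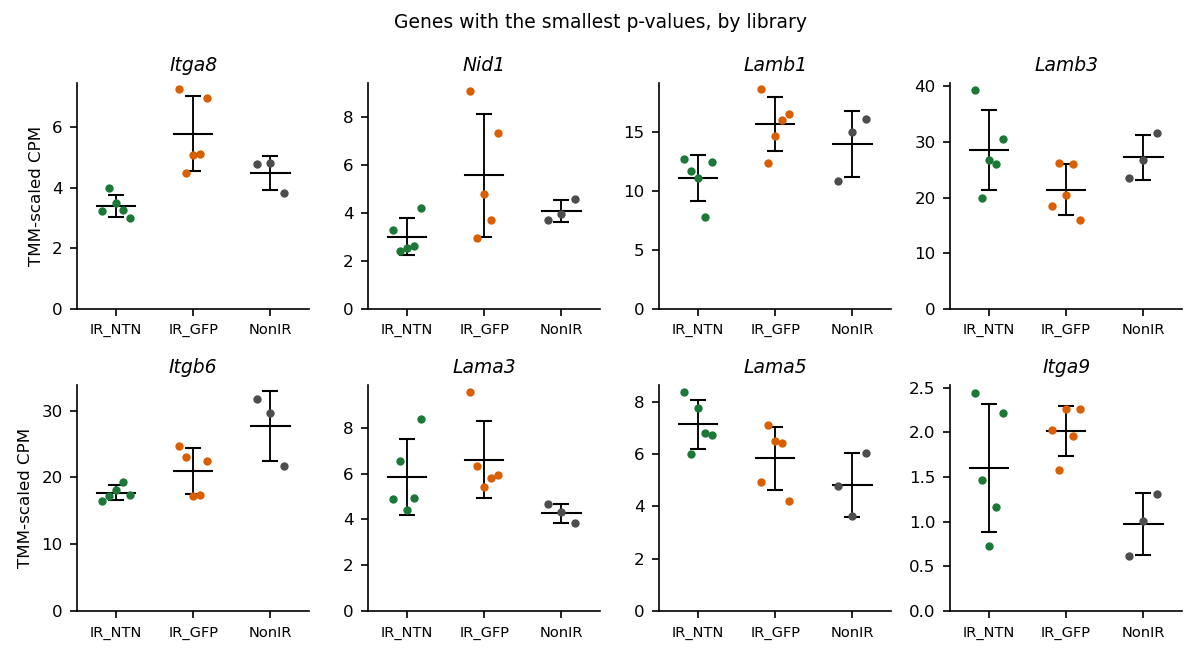
TMM-scaled CPM by library (points) with mean and SD (black) for 8 of the genes with the smallest p-values, in IR_NTN (n = 5), IR_GFP (n = 5) and NonIR (n = 3) libraries; axes start at 0. Itga8 in IR_NTN libraries lies below all IR_GFP libraries, and Itgb6 in IR_NTN libraries below all NonIR libraries.

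The 8 leukocyte integrin genes summed to 12.95 to 26.7 CPM in IR_NTN, 18.4 to 40.2 CPM in IR_GFP and 18.99 to 22.96 CPM in NonIR libraries, with IR_GFP 5 the highest and IR_NTN 3 the lowest library. Itgal, the alpha chain of the lymphocyte integrin that binds ICAM-1, had 5.66, 8.39, 3.99, 5.87 and 6.19 CPM in the IR_NTN libraries, 6.31, 7.19, 4.46, 10.4 and 16.5 CPM in the IR_GFP libraries, and 5.201, 5.23 and 6.78 CPM in the NonIR libraries. Itgb2, the beta chain that Itgal, Itgam and Itgax share, had 3.73, 7.27, 2.69, 4.64 and 4.28 CPM in the IR_NTN libraries, 6.599, 4.42, 4.54, 6.27 and 11.2 CPM in the IR_GFP libraries, and 6.77, 5.401 and 6.05 CPM in the NonIR libraries. Both were highest in IR_GFP 5 and lowest in IR_NTN 3, and the groups overlapped. For IR_NTN against IR_GFP the log2 fold change was -0.58 (SE 0.29, adjusted p = 0.848) for Itgal and -0.54 (SE 0.27, adjusted p = 0.843) for Itgb2. Without IR_GFP 5 these were -0.23 for Itgal and -0.26 for Itgb2. Itgam, the alpha chain of the myeloid complement receptor, had 1.22, 1.701, 1.14, 0.725 and 1.27 CPM in the IR_NTN libraries, 1.595, 1.25, 1.798, 1.42 and 3.15 CPM in the IR_GFP libraries, and 1.16, 1.27 and 1.55 CPM in the NonIR libraries. IR_GFP 5 stood apart. Its log2 fold change was -0.60 (SE 0.29, 95% interval -1.22 to 0.02, adjusted p = 0.829), and -0.29 without IR_GFP 5. Itgam shares 68.7% of its exon bases with Gm49368 on the same strand, and how such reads were counted is not stated.

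Markers of the same cells stood beside these values. The 10 macrophage and myeloid markers summed to 102 to 152 CPM in IR_NTN, 149.7 to 234 CPM in IR_GFP and 155 to 167 CPM in NonIR libraries, with IR_GFP 5 the highest and IR_NTN 3 the lowest library; none of the 10 was at 0 in all libraries, and all 10 had log2 fold changes below 0 for IR_NTN against IR_GFP, none past the threshold. T and NK cell markers, 8 of 10 of them tested, summed to 6.84 to 20.2 CPM in IR_NTN, 10.4 to 28.1 CPM in IR_GFP and 17.8 to 26.9 CPM in NonIR libraries. Their part in the leukocyte integrin values was not tested.

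Itgb7, which pairs with Itga4 or Itgae in lymphocyte integrins, had 2.51, 2.29, 1.06, 2.76 and 2.38 CPM in the IR_NTN libraries, 3.77, 3.56, 2.03, 2.43 and 2.85 CPM in the IR_GFP libraries, and 3.695, 2.78 and 4.09 CPM in the NonIR libraries. All IR_NTN libraries lay below all NonIR libraries, IR_NTN 4 only just and IR_NTN 3 far below the rest. IR_NTN against NonIR gave a log2 fold change of -0.67 (SE 0.29, 95% interval -1.28 to -0.07, adjusted p = 0.5899), and -0.50 without IR_NTN 3. Itgae, the chain that binds E-cadherin on epithelium, had a log2 fold change of -0.58 (SE 0.36, adjusted p = 0.724) in the same comparison. Itga4, the alpha chain of the VCAM-1 receptor, averaged 0.779 ± 0.424 CPM in IR_NTN, 1.08 ± 0.317 CPM in IR_GFP and 0.798 ± 0.273 CPM in NonIR libraries. Itgb2l, a relative of Itgb2, averaged 0.752 ± 0.316 CPM in IR_NTN, 0.9002 ± 0.323 CPM in IR_GFP and 0.515 ± 0.0295 CPM in NonIR libraries. Itgax, a dendritic cell and macrophage chain, averaged 1.89 ± 0.37 CPM in IR_NTN, 1.88 ± 1.03 CPM in IR_GFP and 1.16 ± 0.294 CPM in NonIR libraries. It was lowest in IR_GFP 5, the library highest for Itgal, Itgam and Itgb2, but that value came from only 6 reads. Itga2b, the platelet and megakaryocyte chain, averaged 1.27 ± 0.446 CPM in IR_NTN, 0.761 ± 0.262 CPM in IR_GFP and 0.711 ± 0.3096 CPM in NonIR libraries. Itga2b was highest in IR_NTN 5 (21 reads) and lowest in IR_GFP 5 (6 reads), as was the sum of 5 platelet markers, of which 1 passed the filter.

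The fibroblast markers are given beside the matrix genes. All 7 had log2 fold changes below 0 for IR_NTN against IR_GFP, with a median of -0.69. Dpt, which encodes dermatopontin, a matrix protein of fibroblasts, passed the threshold with all libraries at -1.33 (SE 0.18, adjusted p = 0.0175). That call was lost when any 1 of 6 libraries was left out (IR_GFP 1 or 5, or IR_NTN 1, 2, 4 or 5; adjusted p = 0.0524 to 0.105 by edgeR) and when only the 2 groups were fitted (adjusted p = 0.0977), with log2 fold changes of -1.46 to -1.18 as single libraries were left out. The 7 markers summed to 149.6 to 199.9 CPM in IR_NTN, 244 to 390.3 CPM in IR_GFP and 237 to 284 CPM in NonIR libraries. These sums did not overlap between IR_NTN and either other group, and no marker was at 0 in all libraries. Of all genes tested, 1.11% did not overlap between IR_NTN and IR_GFP, and 6.52% between IR_NTN and NonIR. The largest part of the sum was Dcn, averaging 118.6 CPM in IR_NTN, 191.9 CPM in IR_GFP and 172.2 CPM in NonIR libraries. Col1a1 stood at -0.05 for IR_NTN against IR_GFP, and Dpt was picked with its values in view. Itga8, Nid1 and Lamb1, the 3 of the 40 genes with the smallest p in that comparison, were lower in IR_NTN than in IR_GFP libraries on average. Lamb3, next by p, had a log2 fold change of 0.41, and Lama5 0.29. It was 0.02 for Dag1, -0.01 for Itgb1 and 0.00 for Itga3. These genes do not stand for all 40, of which 29 were below 0 (all genes 52.7%) and 11 above (all genes 47.3%). The part of fibroblast marker levels in these values was not tested. Endothelial markers summed to 34.5 to 49.6 CPM in IR_NTN, 36.95 to 54.1 CPM in IR_GFP and 44.5 to 51.2 CPM in NonIR libraries, with overlap of all 3 groups, and myoepithelial markers to 497 to 816 CPM in IR_NTN, 589 to 664 CPM in IR_GFP and 664 to 740.4 CPM in NonIR libraries.

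**Figure D5:**
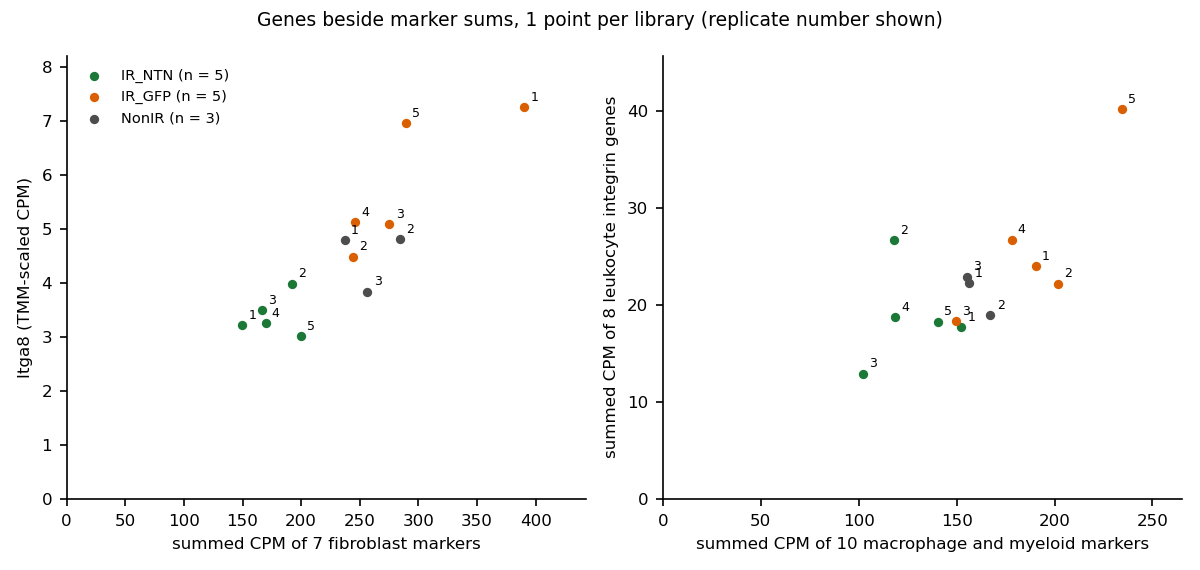
Itga8 CPM beside the summed CPM of 7 fibroblast markers (left), and the summed CPM of the 8 leukocyte integrin genes beside that of 10 macrophage and myeloid markers (right), 1 point per library with its replicate number, IR_NTN, IR_GFP and NonIR in colour; axes start at 0. The 5 IR_NTN libraries lie at the low end of fibroblast markers, and IR_GFP 5 is highest on both axes of the right panel. Itga8 had the smallest p of the tested laminin, integrin and basement membrane genes in IR_NTN against IR_GFP, so its low IR_NTN values were known beforehand.

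Among the integrin-binding proteins, Itgb1bp1, which binds the tail of the beta chain of Itgb1, averaged 14.9 ± 2.53 CPM in IR_NTN, 15.1 ± 1.25 CPM in IR_GFP and 14.6 ± 1.28 CPM in NonIR libraries. Itgb3bp, a binder of the Itgb3 tail that is also a centromere protein, averaged 2.06 ± 0.916 CPM in IR_NTN, 2.11 ± 0.896 CPM in IR_GFP and 2.58 ± 0.949 CPM in NonIR libraries. Itgb1bp2, the muscle protein melusin, had 7 reads in IR_GFP 2, the library with skeletal muscle RNA, and 0 to 3 reads in each of the other 12.

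Genes that work with laminins and integrins were taken from 7 lists with 88 genes, of which 78 were tested. The lists were chosen with earlier results of these data known, so a share above that of all genes is not evidence about them. Some of these genes, such as Col1a1 and Vwf, also served as cell type markers. By edgeR 0 of the 78 passed the adjusted threshold in any comparison, and 12 for IR_NTN against IR_GFP (all genes 6.08%), 10 for IR_GFP against NonIR (all genes 8.78%) and 10 for IR_NTN against NonIR (all genes 7.97%) had an unadjusted p under 0.05, or 15.4%, 12.8% and 12.8% of the 78 in the same order. DESeq2 called 1 gene, 1 gene and 0 genes in the same order, and limma-voom 0 each. The DESeq2 calls were Smoc2, a calcium-binding basement membrane protein (adjusted p = 0.0331 in DESeq2), and Vwf, which carries the RGD sequence and marks vessel walls (adjusted p = 0.00743 in DESeq2). Smoc2 averaged 6.94 ± 1.67 CPM in IR_NTN, 11.8 ± 1.9 CPM in IR_GFP and 11.96 ± 1.23 CPM in NonIR libraries, a log2 fold change of -0.76 (SE 0.18, adjusted p = 0.2597) for IR_NTN against IR_GFP by edgeR. Vwf averaged 7.95 ± 2.07 CPM in IR_NTN, 5.86 ± 1.01 CPM in IR_GFP and 14.1 ± 6.44 CPM in NonIR libraries, a log2 fold change of -1.27 (SE 0.26, adjusted p = 0.119) for IR_GFP against NonIR by edgeR, and -0.84 without NonIR 2. The endothelial markers as a list did not share this direction. Of the 8, Vwf included, 5 were above 0 (all genes 52.7%) and 3 below in that comparison, with a median of 0.22.

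Of 9 collagen genes of basement membranes, 7 had log2 fold changes above 0 for IR_GFP against NonIR (all genes 52.7%). For IR_NTN against NonIR, which shares the NonIR libraries, 8 of the 9 did (all genes 50.5%). Col15a1 had the smallest p for IR_GFP against NonIR at 0.84 (SE 0.31, adjusted p = 0.462). Of 13 tested basement membrane proteins, Sparc, a collagen-binding matrix protein, had the smallest p in that comparison at 0.50 (SE 0.19, adjusted p = 0.462). In the hemidesmosome list Cd151, a tetraspanin that binds laminin receptors, stood at -0.54 (SE 0.16, adjusted p = 0.417) for IR_NTN against NonIR, and at -0.34 without NonIR 1. Fermt1, the epithelial kindlin that activates integrins, stood at 0.56 (SE 0.19, adjusted p = 0.399) in IR_GFP and 0.57 (SE 0.19, adjusted p = 0.491) in IR_NTN, both against NonIR. Fbn1, a microfibril protein with an RGD sequence, stood at -1.08 (SE 0.27, adjusted p = 0.371) for IR_NTN against IR_GFP. The 4 other laminin receptors included no gene with an unadjusted p under 0.05; Rpsa was the one with the smallest p in IR_GFP against NonIR at 0.38 (SE 0.24, adjusted p = 0.695). Ilk, a core integrin adaptor of most cells, was below the filter, at 0 CPM in every IR_NTN and NonIR library, and 89.7% of its exon bases overlap antisense genes; whether the counting caused this was not tested.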

How the data were processed

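RNA of 13 submandibular gland libraries was prepared with SMART-Seq v4 and Nextera XT kits, per the labels' protocols. The submitters' processing notes name STAR 2.5.2a, GRCm38.p3 (mm10), DESeq2, edgeR and limma without roles. The sources used here do not give the counting tool or its use of strand. The series text describes another platform and triplicates, and sample labels were used for grouping. The authors deposited raw counts for 48733 entries, 48709 of them genes; the other 24 held at most 5.85e-05% of a library's reads and were left out. They also deposited a normalised signal table of 17957 entries, whose values equal the counts times 1 constant per library. Exon lengths and coordinates came from GENCODE M21 on GRCm38, which matched all 44 genes. The 44 genes and the gene lists were chosen with earlier results of these data known.

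Genes passing filterByExpr (14727) were scaled by TMM and tested with edgeR 4.0.16 in R 4.3.3 (robust quasi-likelihood F test, 1 mean per group over all 13 libraries, 10 residual degrees of freedom, biological coefficient of variation 0.265), as two-sided tests, with p-values adjusted by Benjamini-Hochberg across the 14727 genes and a threshold of 0.05. Alternatives were DESeq2 1.42.0, limma 3.58.1 (voom, and trend on log2 of the deposited signal plus a pseudocount of 1), RLE scaling, other filters, fits of only the groups compared, a replicate block and leaving out libraries. The fit was tested on simulated data. Full statistics were given to the 6 tested genes with the smallest p in each comparison, and the pathway lists name genes past the threshold and the gene with the smallest p. The marker genes Dpt and Sox10 were picked with their values in view, and leaving out libraries for genes outside this rule was added after seeing the data. Results of 1 of the 44 genes and of 1 pathway gene are not reported here, in text or figures, beyond their part in counts, medians and sums. Depth sets the precision of low genes. Reads carry no molecular identifiers, so they are not independent molecules.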

Additional observations from a re-analysis of the deposited data

Results flagged for a closer look

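Within each group of 5 libraries the highest and lowest value of the 40 tested genes were compared with the others by Dixon's test. Of 80 groups of values 9 held a library that stood apart at the 95% level, where chance flags about 1 in 20. IR_GFP 1 held 3 of them: Lama3 at 9.57 CPM (others 5.40 to 6.34), Nid2 at 2.39 CPM (others 1.25 to 1.43) and Itgb8, a partner of Itgav, at 6.31 CPM (others 1.75 to 2.84). IR_GFP 1 held the highest value of 8 of the 40 genes and the lowest of none. It is the library with the fewest reads and the highest sums of B and plasma cell markers (nearly all Jchain) and of fibroblast markers. IR_GFP 5 stood apart for Itgam at 3.15 CPM (others 1.25 to 1.80), with macrophage markers highest there too. IR_GFP 3 stood apart for Itga10 at 1.25 CPM (others 0.435 to 0.654), from 16 reads. In IR_NTN libraries, IR_NTN 4 was high for Itgb1bp1 at 19.3 CPM (others 13.2 to 14.9) and for Lama1 at 1.09 CPM (others 0.293 to 0.502, 15 reads). IR_NTN 2 was low for Itgb3bp at 0.469 CPM (others 2.10 to 2.70, 8 reads). IR_NTN 3 was low for Itgb7 at 1.06 CPM (others 2.29 to 2.76, 13 reads), and held the lowest value of 10 of the 40 genes. The same counts of highest and lowest values over all genes tested are not given, so these need not be particular to the 40 genes.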

How the results depend on the processing

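In all 22 alternatives, 0 of the 44 genes picked by the rule passed the adjusted threshold in any comparison where tested. The 18 fold changes given in full kept their sign wherever a value could be had (21 alternatives for Itga10). They had been chosen by small p in these same libraries, so kept signs were likely from the start. Some other genes did change sign: Itgav for IR_NTN against IR_GFP went from -0.24 to 0.10 without IR_GFP 1. Of the 132 group mean levels, 132 moved by less than 1 SD with RLE scaling. Counts over all genes, 3 for IR_NTN against IR_GFP, 5 for IR_GFP against NonIR and 3 for IR_NTN against NonIR, did move. In that order, counts without the filter on low counts were 10, 20 and 4, with the deposited table as filter 4, 9 and 4, with DESeq2 38, 73 and 31, with limma-voom 3, 0 and 1, with limma-trend 4, 9 and 4, with only the 2 groups compared 0, 0 and 2, and without IR_GFP 1 and 2 together 1, 1 and 5. Leaving out 1 library gave 0 to 11, 0 to 17 and 0 to 4. With the replicate number as a block the counts were 0, 0 and 0 (691, 1084 and 879 at an unadjusted p under 0.05); same-numbered libraries had correlated deviations of -0.43 to 0.28 over 11 pairs, 3 of them over 0.1, so the numbers were not read as pairs. The Dpt call was also lost with the replicate block (adjusted p = 0.0836 by edgeR). The cause of these shifts was not tested. Depth limits genes under about 10 reads a library, such as Itga10 and Lama1, and single values that fall that low, as in Itgax, Itga2b and Itga9.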

Other observations

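Rows named like these genes but not in the normalised table were Itga2, a collagen-binding alpha chain, with 31 reads over all 13 libraries in the count table, and Itgad, a leukocyte alpha chain, with 2 reads. The Schwann and nerve markers, among the cells that basement membrane surrounds, summed to 54.7 to 69.9 CPM in IR_NTN, 57.1 to 70.7 CPM in IR_GFP and 37.4 to 51.2 CPM in NonIR libraries. All 5 tested markers had log2 fold changes above 0 in both irradiated groups against NonIR, which share the NonIR libraries, and none passed the threshold; Sox10, a glial transcription factor, had the smallest p in each, at 0.67 (SE 0.21, adjusted p = 0.443) for IR_NTN and 0.65 (SE 0.21, adjusted p = 0.367) for IR_GFP by edgeR.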
